A study of Mus musculus with 5 samples.

Results

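The actin isoform family of the mouse has 6 members, each encoded by its own gene: Acta1 (skeletal muscle actin), Actc1 (cardiac muscle actin), Acta2 and Actg2 (the smooth muscle actins), and Actb and Actg1 (the cytoplasmic actins). These 6 genes were taken by symbol from the deposited expression table, which lists 54699 genes, and all 6 were found. The study sequenced RNA of B16F10, a pigmented melanoma line of the mouse, in 5 libraries with 1 library per group, and the cells of every group carried a lentivirus. Cells with forced expression of Myod1, the transcription factor that starts the skeletal muscle programme, and cells with forced expression of Pparg, the nuclear receptor that drives fat cell formation, were collected on day 8 and share 1 control, cells with the empty expression vector from day 8. A knockdown of Setdb1, a gene-silencing histone methyltransferase, by hairpin RNA was sampled on day 7 together with its own control, cells with the empty knockdown vector. The labels call the cells of the 3 treatments differentiated; promoter, clone, number of cultures and virus dose are not given in the sources used here. Since each group is a single library, no condition could be tested against another, and every difference below is a description of these libraries with no replicate check.

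Actin is the protein of the thin filament. The members differ by few amino acids and mainly by where they are made: Actb and Actg1 build the cortex, stress fibres and cell protrusions of nearly all cells, Acta1 and Actc1 build the sarcomeres of skeletal and heart muscle, and Acta2 and Actg2 serve contraction of vascular and enteric smooth muscle. Embryonic skeletal muscle uses Actc1 and Acta2 together with Acta1, and Acta1 predominates later. Transcription of most actin genes depends on serum response factor (Srf), which binds the CArG box and is steered by cofactors that themselves sense free actin monomers; in muscle genes, Myod1 binds the E-box.

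Levels are given as FPKM (fragments per kilobase of gene length, scaled for depth by the authors), with reads recovered from them. The libraries held between 16214802 and 18300670 reads assigned to genes. The FPKM columns summed to between 297582 and 326960, except that of the Myod1 expression library, which summed to 420545. The targeted genes followed the labels: Myod1 stood at 260 FPKM in its own library and at 0 in the other 4, Pparg at 44.4 in its own library and at 0 in the other 4, and Setdb1 at 0.867 in the knockdown against 9.82 in the empty knockdown vector library. Intervals are 95% Wilson intervals for 1 library and exact binomial intervals for a ratio of 2 libraries. They cover counting error only, and reads without molecular identifiers are not independent molecules.

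The positions of the members, on build GRCm38 and all on the minus strand, place each gene on a chromosome of its own. Acta1 (ENSMUSG00000031972) lies at chr8:123891769-123894751 with 7 exons in its coding transcript, and Actc1 (ENSMUSG00000068614) at chr2:114047282-114053548, also with 7 exons. Acta2 (ENSMUSG00000035783) lies at chr19:34241090-34255336 and Actg2 (ENSMUSG00000059430) at chr6:83512905-83536265, each with 9 exons. Actb (ENSMUSG00000029580) lies at chr5:142903115-142906754 and Actg1 (ENSMUSG00000062825) at chr11:120345690-120348542, each with 6 exons. The coding sequences are 1128 to 1134 bases long and 81.5% to 88.7% identical in pairs. The closest pair was Actb with Actg1, at 88.7%, and Acta1 shared 86.2% with Actc1.

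For Actb and Actg2 no upstream stretch was available in the sources used here. The stretches just upstream of the other 4 members are shown, those of the 3 muscle actins that were high in the Myod1 library and that of the cytoplasmic actin Actg1. They are the 250 bases before the RefSeq transcript start (assembly GRCm38.p6, minus strand, written 5′ to 3′), at chr8:123894776-123895025 for Acta1, chr2:114052876-114053125 for Actc1, chr19:34255374-34255623 for Acta2 and chr11:120348496-120348745 for Actg1. Capitals mark CArG boxes (CC, then 6 bases that are each A or T, then GG) and CArG-like boxes (the same with 1 of the 6 inner bases C or G).
Acta1: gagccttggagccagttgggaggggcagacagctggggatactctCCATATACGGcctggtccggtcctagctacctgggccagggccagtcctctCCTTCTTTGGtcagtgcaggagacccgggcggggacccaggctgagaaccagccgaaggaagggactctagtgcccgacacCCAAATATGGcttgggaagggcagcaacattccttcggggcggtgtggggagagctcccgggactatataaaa
Actc1: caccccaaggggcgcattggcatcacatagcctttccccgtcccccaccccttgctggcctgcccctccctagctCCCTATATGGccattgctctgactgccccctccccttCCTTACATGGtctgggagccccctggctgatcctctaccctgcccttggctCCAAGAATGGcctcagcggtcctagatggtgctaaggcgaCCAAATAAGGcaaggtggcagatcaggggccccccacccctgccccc
Acta2: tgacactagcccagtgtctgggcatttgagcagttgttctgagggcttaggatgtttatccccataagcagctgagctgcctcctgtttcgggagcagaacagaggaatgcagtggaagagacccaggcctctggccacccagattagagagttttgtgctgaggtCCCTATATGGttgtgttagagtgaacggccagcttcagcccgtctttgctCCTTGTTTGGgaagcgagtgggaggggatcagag
Actg1: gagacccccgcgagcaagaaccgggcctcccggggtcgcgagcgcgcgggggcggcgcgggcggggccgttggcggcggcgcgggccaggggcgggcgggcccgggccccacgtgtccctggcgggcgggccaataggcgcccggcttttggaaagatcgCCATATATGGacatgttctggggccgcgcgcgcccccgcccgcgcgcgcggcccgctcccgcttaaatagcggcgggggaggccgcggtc

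A CArG box was present in 3 of these 4 windows. It read CCAAATATGG in Acta1, from 73 to 64 bases upstream of the RefSeq start, CCAAATAAGG in Actc1, from 47 to 38 bases upstream, and CCATATATGG in Actg1, from 90 to 81 bases upstream. Acta2 held no CArG box but had CArG-like boxes, CCCTATATGG from 84 and CCTTGTTTGG from 34 bases upstream. The muscle actins shown held several boxes of either kind, with 3 in Acta1, 4 in Actc1 and 2 in Acta2, while Actg1 held 1. Over all 32851 RefSeq windows of the same length, 1.47% held a CArG box, 8.59% held a box of either kind and 0.670% held at least 2 of them. E-boxes (CANNTG) numbered 2 in Acta1, 3 in Acta2, 1 in Actg1 and 0 in Actc1, and 66.2% of all windows held at least 1. Both motifs read as members of the same class on both strands, so each match counts for both. The RefSeq start lies 24 bases upstream of the gene start in the deposited table for Acta1, 37 bases upstream for Acta2, 47 bases inside the gene for Actg1 and 673 bases inside it for Actc1. A match is a stretch of letters and was not tested for binding. Actb and Actg2 were not examined for these motifs, so the muscle actin that was not high with Myod1 is missing here.

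**Figure D1:**
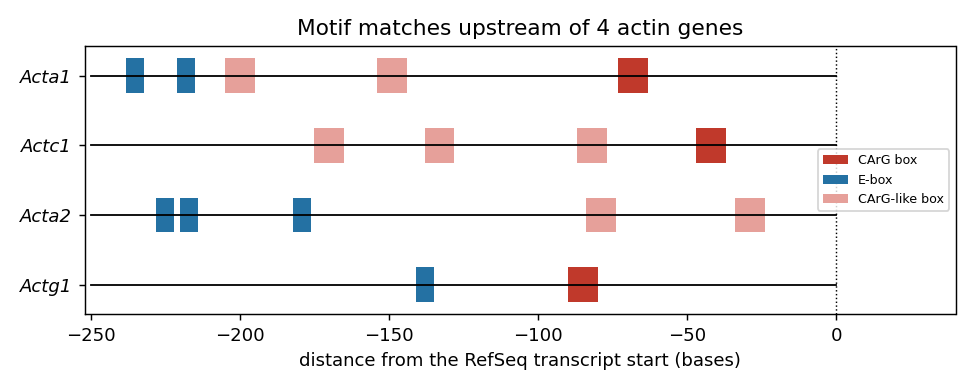
Matches to 3 motifs in the 250 bases upstream of 4 actin genes, by distance in bases from the RefSeq transcript start (x axis, dotted line at 0), with 1 row per gene. Red blocks are CArG boxes, pale red blocks CArG-like boxes and blue blocks E-boxes. The muscle actins shown carry 2 to 4 boxes of the red kinds and Actg1 carries 1.

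Forced expression of Myod1 went with very large amounts of 3 muscle actin transcripts. The muscle actins together made up 93.0% of all actin transcript by FPKM in that library, against under 0.1% in each of the other 4. For a difference between libraries, log2((FPKM + 1)/(FPKM + 1)) was used, and a gene was counted as different at 2-fold. Of the 5 members that reached 1 FPKM in a library, 3 were at least 2-fold higher with Myod1 and none was at least 2-fold lower. These 3 reached 1 FPKM in the Myod1 library alone, so their place among the genes compared depends on the library in which they are high. Among all 12842 genes compared, 14% were at least 2-fold higher and 7.55% at least 2-fold lower. In these bulk libraries more cells of a kind and more RNA per cell cannot be told apart.

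Acta1, the actin of the adult skeletal sarcomere, stood at 14993 FPKM (14945 to 15042, from 362115 reads) with Myod1. It had 0.0797 FPKM (0.0219 to 0.291) from 2 reads in the empty expression vector library, 0.849 (0.575 to 1.25) from 25 reads with Pparg, 0 in the empty knockdown vector library and 0.704 (0.455 to 1.09) from 20 reads with the Setdb1 knockdown. The Myod1 library therefore stood apart from the other 4, all of which were under 1 FPKM. In that library Acta1 was the gene with the most reads, 1.98% of the total, and ranked first by FPKM as well. Against its control the level was 188107-fold higher, with an interval from 52073 to 1553260 because the control held only 2 reads, and against the other control, with 0 reads, it was at least 128362-fold higher when 3 reads are taken as the limit. On the log2(FPKM + 1) scale the difference was 13.76, and no other gene in the table had a larger one.

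Actc1, the heart actin that embryonic skeletal muscle also uses, stood at 2378 FPKM (2359 to 2397, from 60488 reads) with Myod1. The other libraries held 0 reads (empty expression vector), 1 read (Pparg), 1 read (empty knockdown vector) and 0 reads (Setdb1 knockdown). It ranked 13th by FPKM in the Myod1 library and was at least 20948-fold above the 3-read limit of its control. Acta1 exceeded it 6.31-fold by FPKM, a measure that is per base of gene length. Of 7 cardiac markers, Tnni3, Myl7, Nkx2-5 and Ryr2 were at 0 in the Myod1 library. The summed level of the 7 was 15.4 FPKM there against 26.3 in its control, with a range of 10.5 to 26.3 over the 5 libraries. The largest part of that sum was Nppb, a natriuretic peptide, at 11.6 FPKM with Myod1 and 10.4 with Pparg against 26.3; against the other control neither was 2-fold lower (log2 -0.59 and -0.75). Without Nppb the other 6 summed to 3.74 FPKM with Myod1 against 0.0182 in its control, and nearly all of this was Myh6, an atrial myosin heavy chain, at 3.52 against 0.0182.

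Acta2, the actin of vascular smooth muscle and of early skeletal muscle, stood at 267 FPKM (261 to 273, from 7476 reads) with Myod1. It had 3 reads with Pparg and 0 reads in each of the other 3 libraries. That is at least 2589-fold above the 3-read limit of its control, and Actc1 exceeded it 8.91-fold by FPKM within the library. The 8 smooth muscle markers summed to 250 FPKM with Myod1 and to between 15.7 and 23.5 in the other 4 libraries. Only 3 of the 8 reached 1 FPKM in a library and were compared, and all 3 were at least 2-fold higher, beside 14% of all genes. These were Des, the muscle intermediate filament, at 102 FPKM against 6.20, Smtn at 90.4 against 8.93, and Lmod1 at 57.2 against 0.403. Lmod1 reached 1 FPKM in the Myod1 library alone. Des is a marker of skeletal muscle as well. The defining genes of differentiated smooth muscle were low: Myocd, the smooth muscle coactivator of Srf, was at 0 in all 5 libraries, and in the Myod1 library Tagln stood at 0.224 FPKM, Cnn1 at 0.0465 and Myh11 at 0.301.

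Actg2, the enteric smooth muscle actin, stayed near the limit of detection in all 5 libraries. It had 3 reads with the empty expression vector, 4 with Myod1, 10 with Pparg, 5 with the empty knockdown vector and 8 with the Setdb1 knockdown, which is 0.118 to 0.335 FPKM. The interval for Myod1 against its control ran from 0.234-fold to 9.46-fold, so no difference was detectable at this depth. It reached 1 FPKM in no library and was not among the genes compared. Of the 4 muscle actins it was the one without a large value in the Myod1 library.

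**Figure D2:**
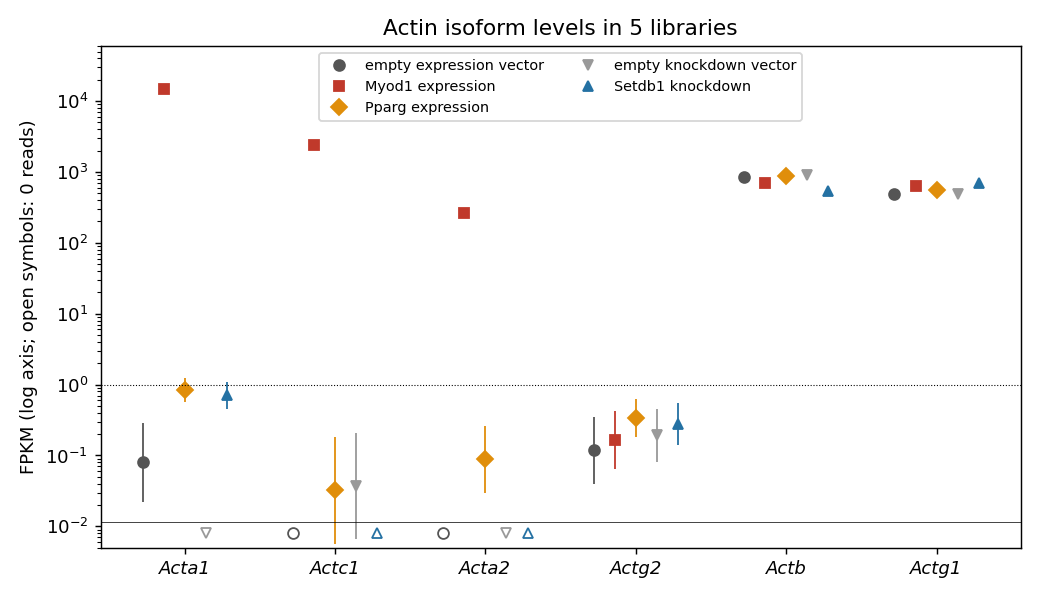
FPKM (log axis) of the 6 actins in the 5 libraries, each library with its own symbol; vertical lines are 95% Wilson intervals, open symbols below the solid line are values of 0, and the dotted line marks 1 FPKM. Acta1, Actc1 and Acta2 reach 14993, 2378 and 267 FPKM in the Myod1 library and stay under 1 FPKM in the other 4, while Actb and Actg1 lie between 487 and 902 FPKM in all 5.

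Skeletal muscle markers accompanied the muscle actins in the Myod1 library. The 7 markers summed to 8248 FPKM there and to between 5.16 and 14.7 in the other 4 libraries, and none of the 7 was at 0 with Myod1. The lowest of the 7 there was Tnnc2, a troponin, at only 1.35 FPKM from 17 reads. Myog, the factor that carries differentiation forward, had 22295 reads with Myod1 and 0 in each other library. The fibroblast markers Dcn and Lum were at 0 in all 5 libraries. The 6 fibroblast markers summed to 0.438 FPKM with Myod1 and 2.52 with Pparg, against 1.22 in their control, and to 0.710 with the Setdb1 knockdown against 1.18. The melanocyte markers were present throughout: the 6 summed to 2244 FPKM with Myod1 and 1321 with Pparg, against 5366 in their control, and to 6515 with the Setdb1 knockdown against 5413. In the last comparison Pmel (4347 against 2993) and Dct (906 against 835) were higher, while Tyr, Mlana, Mitf and Slc45a2 were lower. The median log2 difference there was -0.31. Lowest against the control were Dct, Mitf and Tyr with Myod1 (log2 differences of -1.86, -1.72 and -1.60), Pmel, Dct and Mlana with Pparg (-2.49, -2.03 and -1.37), and Mitf and Slc45a2 with the Setdb1 knockdown (-1.54 and -1.49). The 5 adipocyte markers summed to 317 FPKM with Pparg and to between 0.633 and 2.62 in the other 4 libraries, led by Fabp4 at 153 FPKM, Cd36 at 146 and Lipe at 15.6. Lipe was also counted with the Setdb1 knockdown, at 2.50 FPKM against 0.589, but not against the other control (log2 0.98) or after removal of the GC trend (0.93).

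With Pparg, Acta1 was the only muscle actin with more than 10 reads. Its 25 reads against 2 give a 10.7-fold ratio with an interval from 2.66 to 92.8. On the log2(FPKM + 1) scale the difference was 0.78. Acta1, Actc1 and Acta2 were under 1 FPKM in both libraries of this comparison, where that scale cannot reach 2-fold, so only Actb and Actg1 could have been counted, and 0 of these 2 were. Among all genes 4.22% were at least 2-fold higher and 2.3% at least 2-fold lower. With a pseudocount of 0.1 Acta1 was counted, beside 8.81% of all genes.

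The Setdb1 knockdown library likewise held 20 Acta1 reads against 0, at least 6.02-fold above the 3-read limit. The log2 difference was 0.77. Again only Actb and Actg1 could have been counted, and 0 of these 2 were, where 9.34% of all genes were at least 2-fold higher and 10.3% at least 2-fold lower. With a pseudocount of 0.1 Acta1 was counted here as well, beside 15% of all genes. Between the 2 controls the same limit applies, and 0 of the 2 cytoplasmic actins differed 2-fold in either direction, where 2.67% of all genes did.

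The few Acta1 reads of these libraries came with few reads of most other skeletal muscle markers, but Des was present. It had 928 reads with Pparg against 380 in its control (12.9 FPKM against 6.20) and 947 with the Setdb1 knockdown against 298 (13.6 against 4.75), and the latter, a log2 difference of 1.35, was the only skeletal muscle marker counted in either comparison. With Pparg 1 marker was counted against the other control and after division by the column sum, and 3 with a pseudocount of 0.1. With Pparg, Actc1 had 1 read, Myl1 (a myosin light chain) 31, Tnnt3 (a fast troponin) 27 and Ckm (muscle creatine kinase) 2, against 60488, 70025, 52565 and 40936 with Myod1. With the Setdb1 knockdown, Actc1, Myl1 and Ckm had 0 reads, Tnnt3 8 and Myh3 (the embryonic myosin heavy chain) 30. Both controls already held 15 or 16 Myh3 reads. No Myog read was found in either library.

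The cytoplasmic actins were abundant in every library, and none of their differences from a control reached 2-fold. Actb, the actin of the cell edge and the usual housekeeping standard, stood at 852 FPKM (843 to 861) with the empty expression vector, 689 (681 to 697) with Myod1, 876 (868 to 884) with Pparg, 902 (893 to 910) with the empty knockdown vector and 532 (525 to 538) with the Setdb1 knockdown. The Setdb1 knockdown was the lowest of the 5 and Myod1 the next lowest, with both controls and Pparg above. Actg1, its partner in the cortex, stood in the same order of libraries at 487 (481 to 494), 637 (629 to 644), 552 (546 to 559), 491 (484 to 497) and 691 (684 to 698) FPKM. For Actg1 the Setdb1 knockdown was the highest and Myod1 the next highest, and the controls were the lowest. No neighbours in the order of Actb overlapped in their counting intervals. For Actg1 the intervals of the 2 controls overlapped, and their ratio of 1.01 (0.989 to 1.03) includes 1.

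With the Setdb1 knockdown, Actb was 0.590 times its control (0.581 to 0.599, a log2 difference of -0.76) and Actg1 was 1.41 times (1.38 to 1.43, log2 0.49). Of all genes, 16.2% had a lower log2 difference than Actb in this comparison and 25.3% a higher one than Actg1, so each lies well inside the range of the other genes. With Myod1, Actb was 0.809 times its control (0.796 to 0.821, log2 -0.31) and Actg1 1.31 times (1.28 to 1.33, log2 0.39); 32.0% of genes lay below Actb and 31.9% above Actg1. The direction of Actg1 with Myod1 depends on the scaling: dividing each library by its column sum takes the median of all genes from 0.02 to -0.26. It puts Actg1 at -0.01, while Actb stands at -0.70. With Pparg the ratios were 1.03 (1.01 to 1.04) for Actb and 1.13 (1.11 to 1.15) for Actg1, and the former turns to a log2 difference of -0.04 against the other control. The 2 controls differed by 1.06 times (1.04 to 1.07) for Actb. These libraries differ in vector and day, and no closer pair of libraries was made to gauge the spread of cultures.

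Set against each other within a library, a measure that needs no scaling between libraries, the cytoplasmic actins did not keep the same order. Actb exceeded Actg1 by 1.75 times (1.72 to 1.78) with the empty expression vector, 1.84 times (1.81 to 1.87) with the empty knockdown vector and 1.59 times (1.56 to 1.61) with Pparg. The ratio was 1.08 (1.06 to 1.10) with Myod1 and 0.770 (0.757 to 0.782) with the Setdb1 knockdown, the only library in which Actg1 had the higher FPKM of the pair. Of the 100-base windows of the Actg1 transcript, 51.1% recur in other transcripts, against 1.10% for Actb. How reads that fit several places were treated is not given, so the true order of the pair is not settled by these ratios. The log2 difference of Actb minus that of Actg1 was -1.25 with the Setdb1 knockdown, -0.69 with Myod1, -0.14 with Pparg and 0.07 between the 2 controls. After the median log2 difference of genes of like GC content was subtracted, a step chosen after seeing the data, these values were -1.17, -0.56, -0.12 and 0.07. The transcripts have a GC content of 51.1% (Actb) and 52.6% (Actg1).

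**Figure D3:**
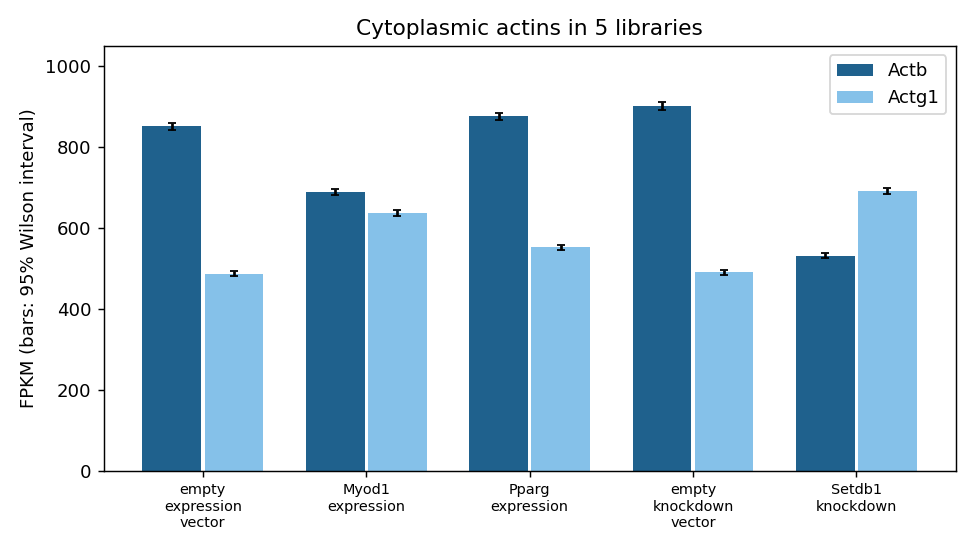
FPKM of Actb (dark bars) and Actg1 (light bars) in the 5 libraries, on an axis that starts at 0; the error lines are 95% Wilson intervals and cover counting error only. Actb is the taller bar in 4 libraries, and in the Setdb1 knockdown library Actg1 stands at 691 against 532 for Actb.

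Part of the Actg1 transcript is repeated elsewhere in the annotation, which bears on its count. Of the 100-base windows of the Actg1 transcript (GENCODE release M21), 51.1% occur word for word in another annotated transcript, all of them in 6 processed pseudogenes; for Actb the share was 1.10%, and for the 4 muscle actins 0%. The treatment of reads that fit several places is not given in the sources used here. Gm12715, the pseudogene that shares the most windows, was listed at 14.7 FPKM with the empty expression vector, 21.9 with Myod1, 21.7 with Pparg, 18.3 with the empty knockdown vector and 29.1 with the Setdb1 knockdown. All 6 summed to between 19.0 and 33.7 FPKM, and Actg1 was listed at 487 to 691 FPKM. Because the treatment of shared reads is not given, these sums do not show how many Actg1 reads were affected. The part of the pseudogenes in the differences of Actg1 was not tested. The genes that overlap the members (Gm20388, A530058N18Rik, Gm23419 and Mir6935) were listed at 0 in all 5 libraries.

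As a pool, the 6 actins summed to 1339 FPKM with the empty expression vector, 18963 with Myod1, 1430 with Pparg, 1393 with the empty knockdown vector and 1224 with the Setdb1 knockdown. With Myod1 the pool was 14.2 times its control. The cytoplasmic pair contributed 1326 FPKM to it, 0.990 times the 1339 of the control, so that nearly all of the difference was muscle actin. That ratio depends on scaling and is 0.754 after division by the column sum. Within the Myod1 pool Acta1 made up 79.1%, Actc1 12.5%, Acta2 1.41%, Actb 3.63% and Actg1 3.36%, and the muscle actins outweighed the cytoplasmic pair 13.3 times. By reads in place of FPKM the striated pair, Acta1 with Actc1, made up 87.0% in place of 91.6%. In the other 4 libraries the cytoplasmic pair was 99.9% or more of the pool. The sum of the pair was 1.07 times its control with Pparg and 0.878 times with the Setdb1 knockdown, and the 2 controls differed by 1.04 times.

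**Figure D4:**
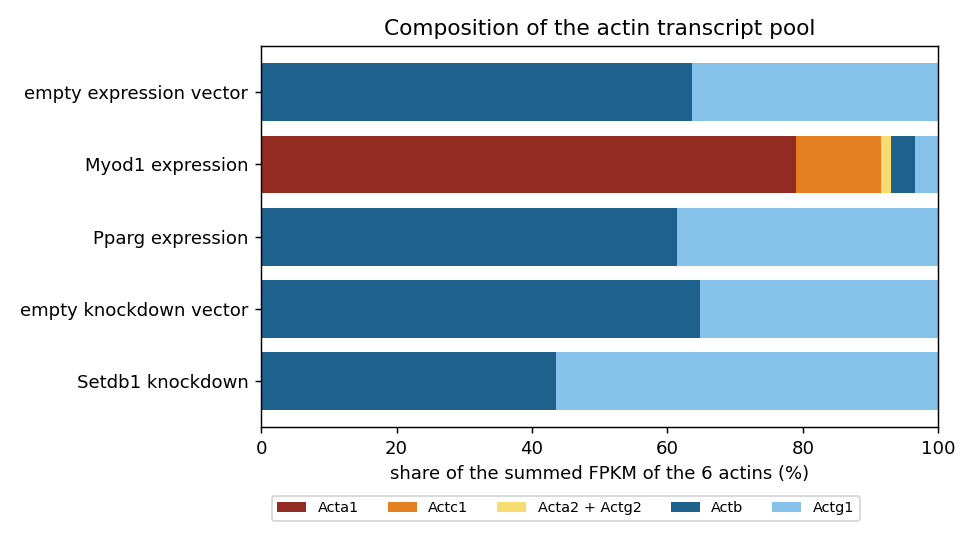
Share of the summed FPKM of the 6 actins (x axis, percent) contributed by each member, with 1 bar per library; Acta2 and Actg2 are drawn together. In the Myod1 library Acta1 takes 79.1% and Actc1 12.5%, and in the other 4 libraries Actb and Actg1 fill the bar, with Actb at 43.5% in the Setdb1 knockdown library and 61.3% to 64.7% in the rest.

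The genes that work with actin were described from 7 lists holding 119 genes, of which 99 were compared. With Myod1, 25 of the 99 were at least 2-fold higher and 12 at least 2-fold lower. Of the 25, 9 reached 1 FPKM in the Myod1 library alone, and a gene at 0 in the control that is compared on this ground is higher by construction. Which of these counts is the larger depends on the scaling: they were 20 and 23 after division by the column sum and 21 and 22 after scaling to the 75th percentile. Of all genes, 9.64% were then higher and 14.8% lower under the former and 11.6% and 10.4% under the latter. Under these scalings the median log2 difference of all genes was -0.26 and -0.11, against which the list medians below are to be read. Of the 63 calls of list and marker genes at 2-fold that the text names, 14 are lost with another pseudocount, scaling or control or with the GC trend removed, as given beside each. A 4-fold limit drops many more, and no lower pathway gene with Myod1 passes it. With Pparg the counts were 6 and 0, with the Setdb1 knockdown 3 and 15, and between the controls 0 and 0. In these comparisons 89, 88 and 87 of the 99 genes reached 1 FPKM in at least 1 of the libraries compared and so could have been counted. The shares for all genes compared are those given above for each comparison.

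Srf and its cofactors numbered 7 compared, with 2 higher, 1 lower and a median log2 difference of 0.33 with Myod1, where the median of all genes was 0.02. The list median became -0.01 after division by the column sum, where that of all genes was -0.26, and 0.17 after scaling to the 75th percentile, where it was -0.11. Srf itself stood at 127 FPKM with Myod1 against 27.5, while the other 3 libraries lay between 25.4 and 41.4. Abra, a muscle protein that promotes Srf activity, stood at 2.80 FPKM and was at 0 in the other 4 libraries, and Elk3, a ternary complex factor, stood at 3.06 against 8.41. The actin-sensing cofactors Mkl1 and Mkl2 were not 2-fold different, at 10.3 FPKM against 13.1 and at 4.53 against 6.94. With Pparg and with the Setdb1 knockdown 0 of the 7 were counted, at medians of -0.02 and 0.00. The latter is the value of Abra, which had no read in either library and was compared through the Myod1 library alone. With values under 3 reads set to 3 the median is -0.15, which is only the ratio of the 3-read limits and does not measure the list.

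Among 23 known targets of Srf and its actin-sensing cofactors, 12 were higher and 4 lower with Myod1, beside 14% and 7.55% of all genes. The median log2 difference was 1.08 (0.69 after division by the column sum). Of the 12, 5 reached 1 FPKM in the Myod1 library alone, so count and median depend in part on the library in which these are high. The highest were Tpm2 (a muscle tropomyosin), at 1433 FPKM against 0.105, Myl9 (a regulatory light chain of smooth muscle and non-muscle myosin), at 93.2 against 1.05, and Lmod1, a filament nucleator. The lowest were Cald1 (caldesmon, which binds the thin filament), at 3.48 against 13.3, Tpm4, a non-muscle tropomyosin, at 21.8 against 58.2, and Flna, a filament cross-linker, at 59.5 against 148. The targets thus went both ways in the Myod1 library. With Pparg 4 were higher and 0 lower, at a median of 0.26 (0.46 against the other control, 0.56 with a pseudocount of 0.1, where 6 were higher, and 0.57 with values under 3 reads set to 3): Thbs1, a matrix glycoprotein, was at 9.60 against 0.776, Myl9 at 5.30 against 1.05 and Cnn2 at 61.8 against 22.1. In the Setdb1 knockdown library 2 were higher and 6 lower, at a median of -0.02. The counts were 5 and 6 with a pseudocount of 0.1, and 2 and 4 against the other control. Itga5, a fibronectin receptor subunit, was at 70.0 against 17.2 and Pdlim7 at 19.7 against 7.44, while Tpm4 was at 16.8 against 57.8, Cald1 at 3.85 against 11.6 and Myh9, the non-muscle myosin heavy chain, at 20.7 against 52.6. Pdlim7 was no longer counted after removal of the GC trend (0.95). Of the 27 genes on this list, 23 had a RefSeq window and 6 of these held a CArG box in it.

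Pointed-end caps and tropomyosins, which set the length and the stability of filaments, went both ways with Myod1: 6 of 9 compared were higher and 3 lower, at a median of 2.95. Lmod1, Lmod2 and Lmod3 were among those compared through the Myod1 library alone. The higher ones included Tpm2, Lmod3 at 65.3 FPKM against 0 and Lmod2 at 54.9 against 0, both nucleators of the sarcomere thin filament. The lower ones were Tpm4, Tmod3 at 2.69 against 7.54 and Tpm3 at 51.5 against 109. Tmod3 was no longer counted after removal of the GC trend (-0.91). With Pparg 1 was higher (Tpm2, at 1.26 FPKM against 0.105, just short of 2-fold after removal of the GC trend) and with the Setdb1 knockdown 1 was lower (Tpm4). Both medians were 0.00 and fall on genes without reads. With values under 3 reads set to 3 they were -0.23 and -0.15. These values are only the ratios of the 3-read limits of the libraries compared and do not measure the list.

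Proteins that bind actin monomers or turn filaments over gave 5 higher and 1 lower of 15 with Myod1, at a median of 0.38. Tmsb4x, a thymosin that holds monomers in reserve, was at 65.5 FPKM against 3.13, Twf2, a twinfilin, at 113 against 19.0, and Cfl2, the muscle cofilin, at 132 against 23.9. The other twinfilin, Twf1, was at 7.27 against 18.6. With Pparg 2 were higher, Tmsb4x at 13.7 against 3.13 and Gsn, the severing protein gelsolin, at 148 against 68.3, and the median was 0.01. In the Setdb1 knockdown library 2 were lower, Twf1 at 8.92 against 27.7 and Capza2, a subunit of the barbed-end cap, at 14.5 against 34.2, and the median was -0.16. Neither was counted against the other control (-0.98 and -0.77), nor Capza2 after removal of the GC trend (-0.66). The Myod1 median became 0.00 after division by the column sum and 0.20 after scaling to the 75th percentile.

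Nucleators, which start new filaments, were among the lists with more lower than higher genes. With Myod1 1 of 22 was higher and 3 were lower, beside 14% and 7.55% of all genes, at a median of -0.37. Cobl, which reached 1 FPKM in the Myod1 library alone, was at 1.72 FPKM against 0. The formins Diaph3 and Fmnl2 were at 1.14 against 7.08 and 4.42 against 12.4, and Arpc1b, a subunit of the Arp2/3 complex, at 21.5 against 58.5. With the Setdb1 knockdown 0 were higher and 6 lower, beside 9.34% and 10.3% of all genes, at a median of -0.11. Among the lower were Diaph3 at 0.640 against 6.74, Fmnl3 at 7.86 against 20.3 and Wasf1, which activates the Arp2/3 complex, at 8.03 against 19.7. With Pparg 0 of the 22 were counted, at a median of -0.11. The lower count with Myod1 was 8 under either other scaling, at medians of -0.74 (column sum, where 14.8% of all genes were lower) and -0.54 (75th percentile, 10.4%). It was 7 after removal of the GC trend, where 7.62% of all genes were lower. Arpc1b was no longer counted against the other control (-0.93), nor was Wasf1 with the Setdb1 knockdown (-0.89), and the Setdb1 median was -0.44 against the other control. The lower count with the Setdb1 knockdown was 4 after removal of the GC trend and 5 against the other control. It was 7 with the other pseudocount and under either other scaling.

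The remaining lists held few counted genes. Of 10 other actins and actin-related proteins compared, Actr2, a core subunit of the Arp2/3 complex, was the single one counted, at 15.3 FPKM against 32.5 with Myod1 (log2 -1.04, and -0.93 against the other control and -0.74 after removal of the GC trend, where it was not counted); the medians were 0.10, -0.08 and 0.01 with Myod1, Pparg and the Setdb1 knockdown. The first turned to -0.20 after division by the column sum (3 lower), to -0.04 after scaling to the 75th percentile and to -0.07 against the other control (1 higher, 2 lower), and the last turned to -0.14 against the other control. Of 17 genes for folding and modification of actin, which must be folded by the TRiC chaperonin, 2 were higher with Myod1: Pdcl3, a chaperonin cofactor, at 41.8 against 9.68, and Pfdn5, a prefoldin subunit, at 126 against 58.8. With Pparg 0 were counted. With the Setdb1 knockdown Nat6 (Naa80, the acetyltransferase of the actin N-terminus) was at 13.8 against 6.18 and Tcp1, a chaperonin subunit, at 49.2 against 102. Neither call is firm: Nat6 (log2 1.04) fell short of 2-fold after either other scaling (0.97 and 0.96), against the other control (0.22) and after removal of the GC trend (0.78), and Tcp1 (-1.03) against the other control (-0.76) and after removal of the GC trend (-0.53). With Myod1, Pfdn5 (1.09) fell short under the same 4 settings as Nat6, at 0.70, 0.90, 0.996 and 0.91. The medians were 0.07, -0.22 and -0.36, and that with Myod1 turns to -0.32 after division by the column sum, -0.12 after scaling to the 75th percentile and -0.21 against the other control. The Setdb1 median was -0.09 against the other control and -0.11 after removal of the GC trend.

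**Figure D5:**
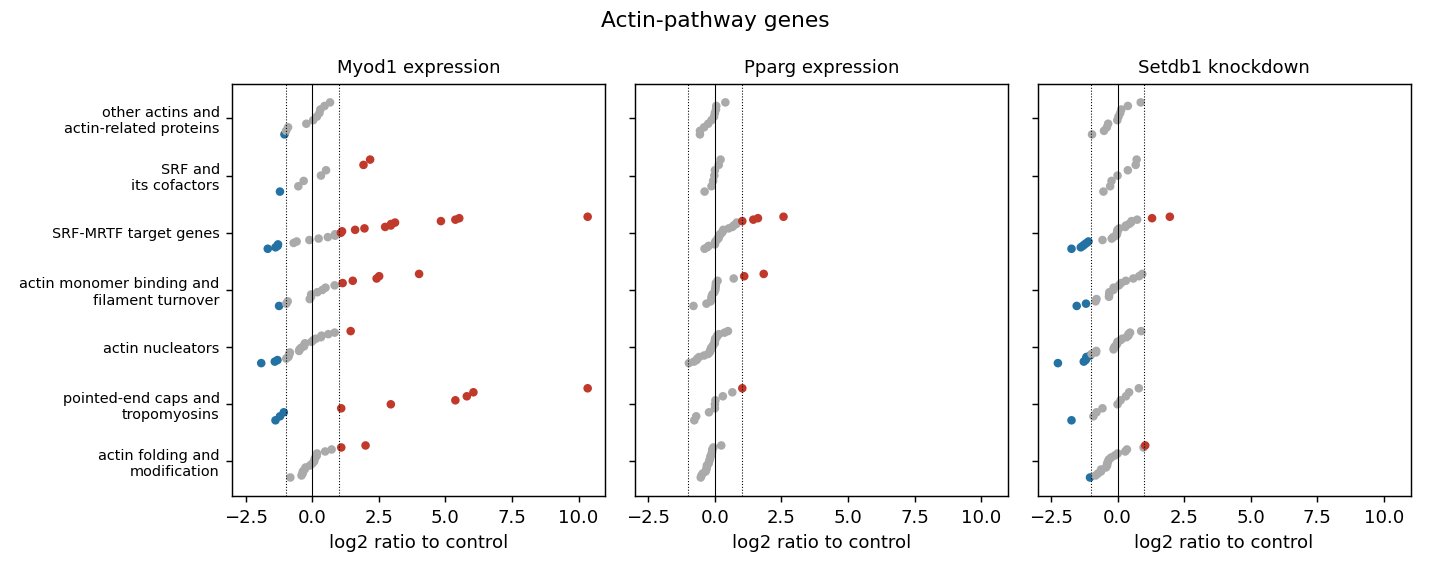
Log2 ratio to the control library (x axis, log2(FPKM + 1) scale) of each gene compared in 7 actin-pathway lists, 1 panel per treatment; dotted lines mark 2-fold, red points are at least 2-fold higher, blue points at least 2-fold lower and grey points lie between. Most of the red points lie in the Myod1 panel (25 of 99 genes plus 12 blue), against 6 and 0 with Pparg and 3 and 15 with the Setdb1 knockdown; genes on more than 1 list are drawn in each.

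The genes whose pattern over the 5 libraries was nearest to each member were found by the root mean square difference of centred log2(FPKM + 1) among 10891 protein-coding genes. For Actc1 they were the sarcomere genes Myh3 (0.19), Tnnt3 (0.33) and Myl1 (0.34), and these 3 were also nearest to Acta1, at 1.06 to 1.16. For Acta2 they were Hfe2 (0.028), the introduced gene Myod1 (0.047) and Smyd1 (0.047), a muscle lysine methyltransferase, at 255 to 271 FPKM with Myod1. For Actb they were Tsen34 (0.019), Sdc1 (0.022) and Rtn3 (0.039), and for Actg1 Taf12 (0.018), Abhd3 (0.025) and Stk16 (0.025). Tsen34, a subunit of the tRNA splicing endonuclease, stood at 55.9 FPKM with the Setdb1 knockdown against 95.1 and at 70.9 with Myod1 against 91.3. For Actg2, whose reads numbered 10 or fewer, the nearest were Harbi1, Nptn and Tceanc2, which were near flat.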

How the data were processed

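Total RNA of 5 libraries was sequenced; per the labels' protocols it was extracted with TRIzol and prepared with the NEBNext Ultra RNA kit. The submitters' processing notes name CASAVA, HISAT2, featureCounts 1.5.0-p3 and GRCm38. The authors deposited FPKM values per gene, per the file headers; strand handling and the scaling step are not given in the sources used here. Every column matched a sample. FPKM times gene length gave whole multiples of 1 step for 100% of values above 0 (tolerance 0.01 reads), and these are the reads given. Column divisors were 0.859 to 1.10 times the reads.

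Genes at 1 FPKM or more in a library were compared as log2(FPKM + 1) differences, which understate low genes, and counted at 2-fold, in Python 3.11.15 with pandas 2.3.3 and scipy 1.17.1. The step was tested on simulated data. The named genes are the members, the 3 highest and 3 lowest of each list past 2-fold in each comparison, the 3 nearest genes of each member and the targeted genes. Outside this rule are Mkl1, Mkl2, Tagln, Cnn1, Myh11, Myocd, Myog, Ckm, Tnnc2, Tnni3, Myl7, Nkx2-5, Ryr2, Dcn and Lum. The sequence partners and the overlapping genes are outside it too. All of these were named with their values known. Members and lists were chosen with earlier results of these data known. Shared windows and coding sequences came from GENCODE M21 and promoters from RefSeq. Alternatives were another pseudocount, no filter, a 4-fold limit, 2 scalings, the other control and GC correction.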

Additional observations from a re-analysis of the deposited data

How the results depend on the processing

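Of 114 log2 differences of single members under another pseudocount, scaling or control or without the GC trend, 78 lay within the counting interval of the value reported and 36 outside it. The sign changed in 5, none of them counted as 2-fold: Actg1 with Myod1 (0.39 to -0.01, column sum), Actb (0.04 to -0.04), Actc1 (0.05 to -0.01) with Pparg and Actg2 with Myod1 (0.06 to -0.04) against the other control, and Acta1 between the controls (-0.11 to 0.05, GC trend removed). A pseudocount of 0.1 put 1 member (Acta1) past 2-fold with Pparg and 1 with the Setdb1 knockdown, where there were 0. Pathway genes at least 4-fold different numbered 15 higher and 0 lower with Myod1, 1 higher with Pparg, and 0 higher and 1 lower with the Setdb1 knockdown. Lower pathway genes with Myod1 numbered 23 after division by the column sum and 22 after scaling to the 75th percentile, against 12, beside 20 and 21 higher, against 25. With Pparg 1 pathway gene was lower with a pseudocount of 0.1 and 1 with the other control, against 0. With the Setdb1 knockdown 7 were higher with a pseudocount of 0.1 and 1 after removal of the GC trend, against 3. The striated share with Myod1 was 87.0% of reads and 92.9% without the smooth muscle actins.

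The summed FPKM of the 6 actins after division by the column sum and after scaling to the 75th percentile was 1401 and 1380.4 with the empty expression vector, 15101 and 17160 with Myod1, 1609 and 1489 with Pparg, 1508 and 1465 with the empty knockdown vector, and 1253 and 1207 with the Setdb1 knockdown. The ratio of the cytoplasmic sum to its control was 0.952 (other control), 0.754 (column sum) and 0.869 (75th percentile) with Myod1, 1.03 (other control) and 1.15 (column sum) with Pparg, and 0.913, 0.831 and 0.823 with the Setdb1 knockdown. The alternatives for this ratio and the GC trend were chosen after seeing the data; the cause of these shifts was not tested beyond the change of scale itself. Counts of pathway genes without the filter on low values were not run. No paired analysis was possible because each group has 1 library. Depth limits what can be said of Actg2 and of muscle actins outside the Myod1 library, which rest on 25 reads or fewer.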

Other observations

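Actb is a common reference gene, and its spread over the 5 libraries was set beside 11 other reference genes, a list put together after the data were seen. The highest FPKM over the lowest was 1.70 for Actb and 1.42 for Actg1. Over the 11 it ran from 1.41 (Rplp0, a ribosomal protein) to 10.9 (Ywhaz, a 14-3-3 protein), with a median of 2.08. Gapdh, the glycolytic enzyme used most often beside Actb, had 5.23. A smaller spread than that of Actb was seen in 4 of the 11 (Rplp0, Ppia, Hprt and Tbp), and in 1 of the 11 than that of Actg1. Among all 513 genes with a mean of at least 100 FPKM the median was also 2.08, and 123 had a smaller spread than Actb and 41 a smaller one than Actg1. These spreads hold under the scaling of the deposited values and were not computed under another.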
